A study of Saccharomyces cerevisiae with 6 samples.

Results

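The level of extended mRNAs was measured in a decay-competent pool of Saccharomyces cerevisiae strains, the pool that carries a deletion of YEL068C. The genes described are the 522 that had a gene symbol and a value on both arrays titled for this pool, of 671 genes named by a probe valued on any of the 6 arrays of the series. The cells were haploid and of mixed strain, all of BY4742/BY4741 descent. Each of them carried the YEL068C deletion and a DAmP allele of 1 gene, and NAM7 and NMD2, whose products act in nonsense-mediated mRNA decay, were not deleted in it. The double mutant haploids were selected with G418 and nourseothricin and grown for 18 generations, and cells were taken in exponential growth. The remaining 4 arrays come from pools deleted for NAM7 or NMD2 and enter no comparison here.

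A DAmP allele is made by placing a resistance cassette directly behind the coding sequence of an essential gene, which moves the native 3' untranslated region away and gives an mRNA with a long foreign 3' end. Such an mRNA is usually less stable, and nonsense-mediated decay, a cytoplasmic pathway that degrades mRNAs whose translation ends far from a normal 3' end, is one route by which it is lost. Each strain carries its own molecular barcode inside this extension, so the barcode in RNA reports the extended mRNA of 1 gene, and the same barcode in genomic DNA reports how many cells of that strain the pool holds. A barcode belongs to a strain and not to a gene sequence, so near-identical paralogs are not mixed up by hybridisation of the gene itself.

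A primer that matches the extension was used for reverse transcription, and the barcodes amplified from this cDNA (Cy3) were hybridised together with those amplified from genomic DNA (Cy5), which was prepared from a separate aliquot of the cells. The YEL068C arrays gave a value for 660 and 749 probes, 649 of them on both arrays, and 638 of these had a gene symbol. For 116 genes with 2 probes the probe values differed by a median of 0.06, and 406 genes had 1 probe. The series text calls the second array a technical replicate started from the raw cells, so every error given here is the technical spread of 1 pool from 1 cross.

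The level used for the 522 genes is the log ratio of the RNA barcode to the DNA barcode, read as log2 and centred on each array's median over these genes. The deposited table states neither the log base nor the numerator. The labels describe the ratio as reflecting RNA abundance, yet in the deposited sign YEF3, the gene of a translation elongation factor that is abundant in yeast, had -5.23 and -6.11, and the deposited medians of aminoacyl-tRNA synthetase genes were -2.07 and -2.52. The values were therefore taken as DNA over RNA and their sign was turned, which is a likely and not a stated direction. Since the direction was taken from abundant genes, their high levels are no independent evidence. If the deposited sign were RNA over DNA, every level called high below would be low and the reverse. Pairs of values are given in the order replicate 1 and replicate 2, and a mean ± SD is over these 2 arrays (n = 2).

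Levels differed between genes far more than between arrays. Mean levels ran from -3.59 to 5.60 with an SD of 1.43 across genes, whereas the root mean square SD between the arrays was 0.51. Across the 522 genes the arrays correlated with r = 0.88 (Spearman's rho 0.87), given as a description because genes share the same libraries. By limma, which tested each gene's level against the array median, 170 genes lay above it (32.6% of those tested) and 168 below (32.2%), at an adjusted p under 0.05. The other 184 did not pass. The standard error of limma was between 0.30 and 0.56, and the smallest level that passed was 0.69 in size. A difference between genes of less than the median gap between arrays, 0.40, is within the technical spread. A larger difference can be as well, since the 95th percentile of that gap was 1.30. In the words used here, a gene is above or below the median only if it passed this test.

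**Figure D1:**
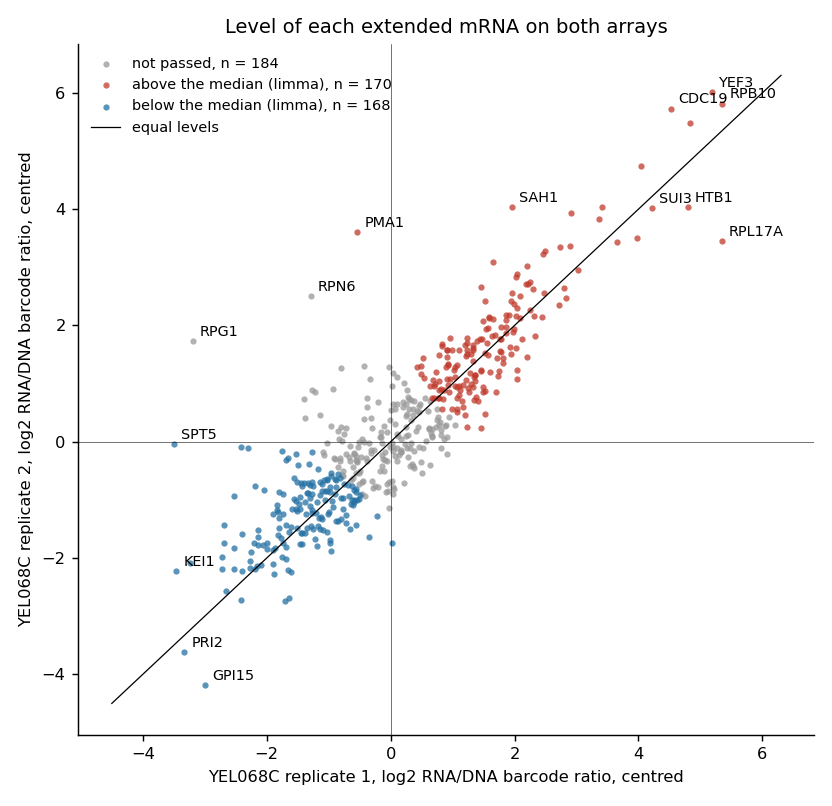
Level of each of 522 extended mRNAs on replicate 1 (horizontal axis) against replicate 2 (vertical axis), as log2 RNA/DNA barcode ratio centred on the array median. Red points are the 170 genes above the median and blue points the 168 genes below it by limma, grey points the 184 that did not pass, and the line marks equal levels; RPG1, PMA1, RPN6 and SPT5 stand far from that line.

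The highest levels belonged to genes of protein synthesis and central metabolism, together with a histone gene and a small RNA polymerase subunit gene. YEF3 (YLR249W), the fungal elongation factor 3, had 5.19 and 6.02, and RPB10 (YOR210W), a small subunit shared by the nuclear RNA polymerases, had 5.36 and 5.82 (limma adjusted p = 5.61e-14 for each). Their means were 5.60 ± 0.59 and 5.59 ± 0.33 (SD, n = 2 arrays), so the order of these 2 genes is not resolved. Next were ILV5, an enzyme of branched-chain amino acid synthesis, with 4.84 and 5.49, and the pyruvate kinase gene CDC19 with 4.53 and 5.73. The arrays of these 4 genes do not overlap with those of any gene ranked below the tenth. HTB1, which encodes histone H2B, had 4.80 and 4.03, and the ribosomal protein gene RPL17A had 5.35 and 3.45. The phosphoglycerate kinase gene PGK1 (4.04 and 4.74), SUI3, the beta subunit of initiation factor eIF2 (4.22 and 4.02), ARC35 of the actin-nucleating Arp2/3 complex (3.98 and 3.51) and the fatty acid desaturase gene OLE1 (3.41 and 4.04) completed the 10 highest.

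The 10 lowest levels belonged to genes of several functions. GPI15 (YNL038W), part of the enzyme that begins the synthesis of glycosylphosphatidylinositol (GPI) anchors, had -3.0 and -4.19, and PRI2 (YKL045W), the large primase subunit, had -3.34 and -3.62 (limma adjusted p = 6.1e-10 and 3.23e-10). Their means were -3.59 ± 0.84 and -3.48 ± 0.20 (SD, n = 2 arrays), which again leaves their order unresolved. KEI1, a partner of the enzyme that makes inositol phosphorylceramide, followed with -3.47 and -2.23. Next in the order, with only the RNase MRP subunit gene RMP1 (-2.42 and -2.72) among them, were 3 genes of the mitotic spindle: SPC29 of the spindle pole body (-3.25 and -2.09), DAM1 of the ring that couples kinetochores to microtubules (-2.66 and -2.58) and MTW1 of the kinetochore (-2.73 and -2.19). HYM1 of the morphogenesis network (-2.53 and -2.19), the glucosamine phosphate acetyltransferase gene GNA1 (-2.73 and -1.98) and KRE29 of the Smc5-Smc6 complex (-2.40 and -2.23) closed the 10 lowest. All 20 genes at the ends of the range were on the same side of the median on both arrays. Their ranks among neighbours are less certain, since RPL17A, CDC19, GPI15, SPC29 and KEI1 each differed between arrays by more than 1.

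Function lists, 30 in number, described 488 of the 522 genes, and 28 of them held at least 5 measured genes. Among those 28, list medians ran from -1.17 for kinetochore and spindle pole genes to 2.37 for aminoacyl-tRNA synthetase genes. A mean level over 2 was found for 45 of all 522 genes. Of these, 9 were among 13 genes of the translation factor list, 8 among 13 of the synthetase list and 7 among 24 of the metabolism list. The lists of kinetochore, replication or cohesin genes held 0. A mean under -2 was found for 22 of all 522 genes. Of these, 4 were among the 28 measured kinetochore or spindle pole genes. The lists of translation factors, synthetases, metabolism, proteasome or ribosome assembly held 0. Genes past either limit are few over all genes, so a 0 in a single list of 13 to 35 genes says little about that list. The lists and the order they fall into are described and not tested.

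**Figure D2:**
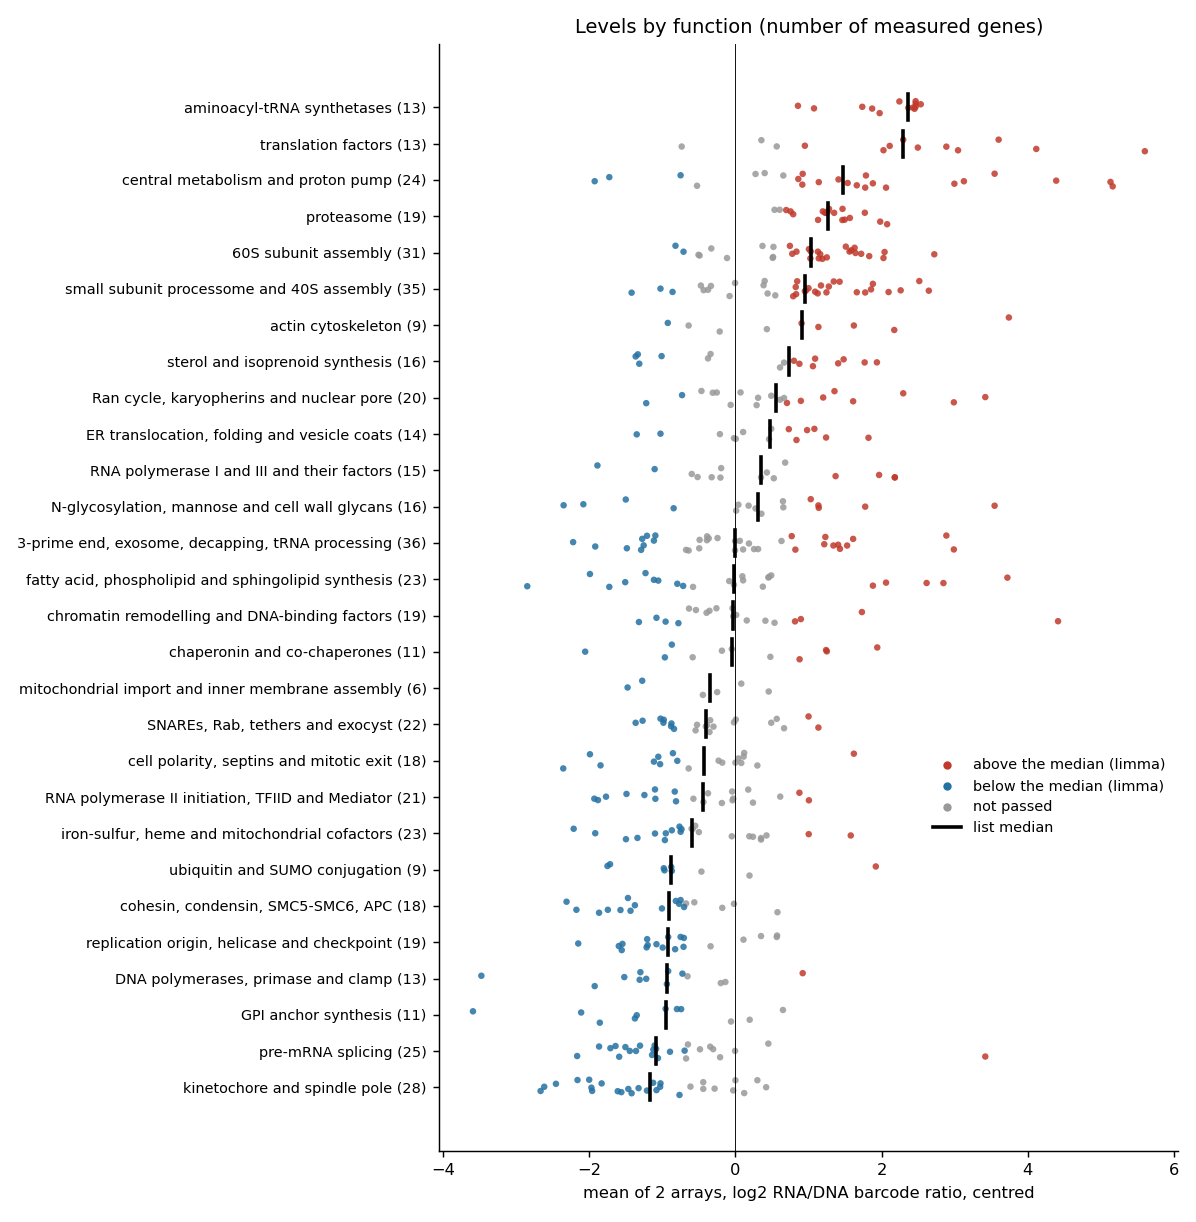
Mean level of each gene (points, horizontal axis, log2 RNA/DNA barcode ratio centred on the array median) in the 28 function lists with at least 5 measured genes, ordered by list median (black bars), with the number of measured genes in brackets. Synthetase genes have the highest median, 2.37, and kinetochore and spindle pole genes the lowest, -1.17; colours are the limma calls of single genes.

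Aminoacyl-tRNA synthetases, which charge tRNAs with amino acids, formed a uniformly high group. All 13 measured genes of 23 listed were above the median, against 32.6% of all genes, and their levels had an SD of 0.56 across genes. GLN4 (glutaminyl) had 2.73 and 2.35, THS1 (threonyl) had 2.22 and 2.72 and YHR020W (prolyl) had 2.05 and 2.89. At the low end were HTS1 (histidyl) with 0.43 and 1.29, TYS1 (tyrosyl) with 1.18 and 0.98 and DPS1 (aspartyl) with 1.54 and 1.94. The 8 genes over 2 lay close enough together that their order is within the spread between arrays.

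Translation factors had a median of 2.30 over 13 measured genes, of which 10 were above the median (76.9%, background 32.6%) and 0 below. The initiation factor eIF2, which brings the initiator tRNA, was represented by SUI3 and SUI2 (2.74 and 3.36), both among the 15 highest. Of the eIF3 subunits, which scaffold initiation, PRT1 had 3.37 and 3.84 and NIP1 had 2.09 and 2.51, while RPG1 had -3.20 and 1.73 and did not pass. RPG1 showed the widest gap between arrays of any gene. The poly(A)-binding protein gene PAB1 (2.49 and 3.29), the elongation factor gene EFB1 (2.25 and 2.74) and the release factor gene SUP45 (2.09 and 2.14) were also above. GCD2 of the exchange factor eIF2B had 0.93 and 0.98, lower than both eIF2 genes on each array. The 3 genes that did not pass were RPG1, DYS1 (0.76 and 0.38), which modifies eIF5A, and the acetyltransferase gene NAT2 (0.92 and -0.21). RPL17A was the 1 gene measured of 27 listed ribosomal protein genes.

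Ribosome assembly genes lay mostly above the median. In the 60S list, with a median of 1.03, 21 of 31 measured genes were above (67.7%) and 2 below (6.45%). In the small subunit list, with a median of 0.95, 22 of 35 were above (62.9%) and 3 below (8.57%). The background was 32.6% above and 32.2% below. Among 60S factors the GTPase genes NOG2 (2.80 and 2.65) and NOG1 (1.91 and 2.18) and the ATPase gene ARB1 (1.87 and 2.19) were highest. SDO1, which acts in the last cytoplasmic steps, had -1.18 and -0.47, the rRNA-processing endonuclease gene LAS1 had -0.56 and -0.87, and the kinase gene GRC3 had -0.25 and -0.77 without passing. LAS1 and GRC3 work in 1 complex, and both were at the low end of the list.

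On the small subunit side the box C/D snoRNP gene NOP58 (2.83 and 2.47), SOF1 (2.48 and 2.56) and ESF1 (2.26 and 2.27) were highest. The lowest were MPP10 (-0.97 and -1.88), a member of the early U3 particle, the ATPase gene FAP7 (-0.93 and -1.13) and SGD1 (0.03 and -1.75). Parts of the small subunit processome could be compared by subcomplex. UTP9, UTP10 and UTP15 of UTP-A had mean levels of 1.43, 1.25 and 1.09 and were above the median, whereas UTP8 of the same subcomplex was at -0.38 and did not pass. In UTP-B, PWP2 (1.79 and 1.77) and DIP2 (1.77 and 1.56) were above and UTP18 (0.39 and 0.71) did not pass. Subunits of 1 complex can thus differ in level by more than the spread between arrays, as UTP9 (1.73 and 1.13) and UTP8 (0.04 and -0.79) did.

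RNA polymerase genes ranged widely in level. In the list of polymerases I and III and their factors, 4 of 15 measured genes were above the median (26.7%, background 32.6%). Below it were 2 (13.3%, background 32.2%). RPA190 (1.95 and 2.42) and RPA135 (2.0 and 2.37), the large catalytic subunits of polymerase I, had the same mean of 2.18, and RPC40, shared with polymerase III, had 2.0 and 1.94. RPO31, the largest subunit of polymerase III, had 0.96 and 1.79. The other polymerase III subunits RPC82 (0.94 and 0.43), RET1 (0.34 and 0.72), RPC17 (0.63 and 0.24) and RPC53 (0.33 and 0.38) lay above 0 on both arrays without passing. Genes of TFIIIC, which binds the promoters of tRNA genes, were lower, with TFC4 (-1.34 and -0.88) and TFC6 (-2.14 and -1.64) below the median and TFC3 (-0.92 and -0.28) not passing. Of 12 listed polymerase II core and shared subunits only 3 were measured, and all 3 were above (background 32.6%). RPB2 had 1.69 and 1.84 and RPB5 had 1.55 and 1.71, beside the much higher RPB10.

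The list of polymerase II initiation, TFIID and Mediator also held elongation genes, among them SPT5, SPT6 and SPT16. Each of its measured genes had a lower mean than the 3 measured polymerase II core and shared subunits. Of its 21 measured genes 9 were below the median (42.9%, background 32.2%) and 2 above (9.52%, background 32.6%). Those above were TFG1 of TFIIF (1.07 and 0.95) and MOT1 (0.69 and 1.07), an ATPase that removes TATA-binding protein from DNA. NCB2 (0.22 and 1.01), a subunit of the repressor NC2, was next and did not pass. All 6 measured TFIIH genes, whose products open the promoter and also repair DNA, had negative means, and 5 were below the median. TFB2 had -1.66 and -2.21, the cyclin gene CCL1 -1.91 and -1.86, and the helicase gene RAD3 -1.27 and -1.23, while TFB1 (-0.54 and -0.34) did not pass. SPT5, an elongation factor gene, was called below from -3.50 and -0.05, and SPT6 (-1.23 and 0.86) and SPT16 (-0.80 and 1.28), which handle nucleosomes during elongation, did not pass. These 3 had values higher by more than 2 on replicate 2.

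Chromatin and DNA-binding factors had a median of -0.04 over 19 genes, with 4 above and 4 below (21.1% each, background 32.6% and 32.2%). On single arrays that median was -0.285 on replicate 1 and -0.195 on replicate 2. Beside HTB1, the ATPase gene RVB1 (1.64 and 1.83), the general regulatory factor gene RAP1 (0.94 and 0.86) and ARP9 of the remodeller RSC (0.54 and 1.10) were above. SWC4 (-1.75 and -0.90) and EPL1 (-1.76 and -0.16), shared by or belonging to the NuA4 acetyltransferase, and the origin recognition gene ORC2 (-1.45 and -0.72) were lowest. RSC subunits RSC4, RSC58, SFH1 and RSC9 did not pass, with mean levels of 0.16, -0.40, -0.54 and -0.64.

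The proteasome, which degrades ubiquitin-tagged proteins, was also uniform, at a lower level than the synthetases. All 19 measured genes of 38 listed had a mean above 0 and 17 were above the median (background 32.6%), with an SD of 0.44 across genes against 1.43 over all genes. The 20S core particle genes, all 8 above, ran from PRE7 (0.92 and 1.34) to PRE1 (2.33 and 1.83) with PRE2 at 1.77 and 1.78. In the regulatory particle the ATPase genes RPT5 (1.87 and 2.10) and RPT1 (0.84 and 0.56) were above, and RPT6 (0.46 and 0.62) did not pass. RPN6 of the lid had -1.29 and 2.5, on opposite sides of the median, and did not pass. The medians were 1.39 for the core particle, 1.13 for the base and 1.23 for the lid, which differ by less than the median gap between arrays.

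Enzymes that attach ubiquitin or SUMO lay lower, with 6 of 9 measured genes below the median (66.7%, background 32.2%). UBA1, the ubiquitin-activating enzyme that feeds all ubiquitin reactions, was the 1 gene above (1.87 and 1.98). AOS1 (-1.69 and -1.82), a subunit of the SUMO-activating enzyme, and UBC9 (-1.78 and -1.66), the SUMO-conjugating enzyme, were lowest, followed by the SUMO protease gene ULP1 (-0.95 and -1.02). The arrays of UBA1 and of these 3 SUMO pathway genes do not overlap. Genes of the ubiquitin pathway were below too, namely CDC4 (-1.66 and -0.29), UBC1 (-0.80 and -0.96) and UFD1 (-1.08 and -0.67). The ubiquitin-conjugating enzyme gene CDC34 (0.08 and 0.31) and MET30 (-0.67 and -0.27), an F-box protein gene, did not pass.

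Chaperonin and co-chaperone genes had 4 above (36.4%) and 3 below (27.3%) of 11, both near the background of 32.6% and 32.2%. CCT2 of the cytosolic chaperonin (2.12 and 1.77), the Hsp40 gene SIS1 (0.83 and 1.68) and the oxidase gene ERO1 of the endoplasmic reticulum (0.91 and 1.58) were above. TCP1, another subunit of the same chaperonin, had -1.27 and 0.90 and did not pass. TEL2 (-2.69 and -1.43), which helps to mature large kinases, and, also in this list, the cytosolic iron-sulfur assembly genes CFD1 (-0.78 and -1.16) and NAR1 (-1.53 and -0.22) were below.

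**Figure D3:**
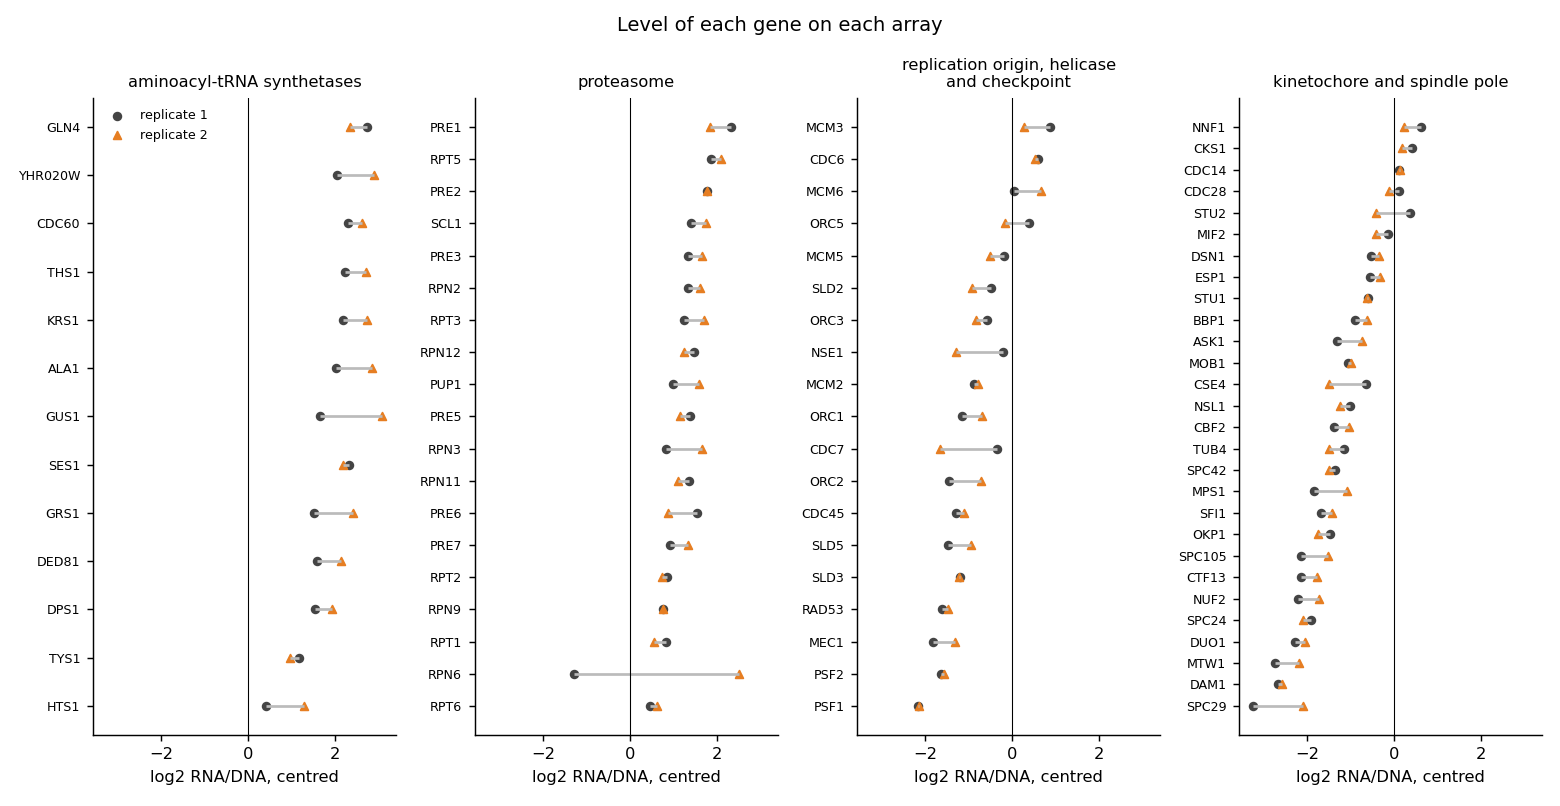
Level of every measured gene in 4 function lists on replicate 1 (circles) and replicate 2 (triangles), joined by a line, as log2 RNA/DNA barcode ratio centred on the array median (vertical lines at 0). All 13 synthetase genes and 17 of 19 proteasome genes are above the median by limma, against 32.6% of all genes. Below it are 14 of 19 replication genes and 19 of 28 kinetochore and spindle pole genes, against 32.2% of all genes. RPN6 has the widest gap between arrays shown.

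Metabolic genes had a median of 1.47 over 24 genes, 17 above (70.8%, background 32.6%) and 3 below (12.5%, background 32.2%). Glycolysis contributed CDC19, PGK1 and the phosphoglucose isomerase gene PGI1 (2.89 and 3.36). The proton pump gene PMA1, one of the most strongly expressed yeast genes, had -0.54 and 3.61 and was called above although its arrays lay on opposite sides of the median. SAH1, which recycles S-adenosylhomocysteine, had 1.96 and 4.04, positive on both but more than 2 apart. At the low end were the thymidylate synthase gene CDC21 (-1.62 and -2.24), the biotin ligase gene BPL1 (-2.53 and -0.93) and FOL1 of folate synthesis (-0.97 and -0.54).

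Within pathways the levels changed from step to step. In sterol synthesis HMG-CoA synthase (ERG13, 1.26 and 0.93) was above the median, and the next measured enzymes, the kinases ERG12 (-1.47 and -1.17) and ERG8 (-1.81 and -0.87), were below it. The steps that follow were above again for MVD1 (0.64 and 0.97) and IDI1 (1.27 and 0.86), and ERG20 (-1.14 and 0.46) did not pass. Squalene synthase (ERG9, 0.86 and 0.90), squalene epoxidase (ERG1, 1.30 and 1.52) and lanosterol demethylase (ERG11, 1.98 and 1.90) were all above. Thus neither array of either kinase gene reached the level of ERG13, MVD1, IDI1, ERG9, ERG1 or ERG11 on any array. In the wider list of sterol and isoprenoid genes, RER2 (1.58 and 1.96) and NCP1 (1.75 and 1.22) were among the highest and the prenyltransferase subunit gene BET4 (-1.29 and -1.45) was the lowest.

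The measured genes of cytosolic fatty acid synthesis and desaturation were all above, with ACC1 (acetyl-CoA carboxylase) at 1.46 and 2.67, the synthase genes FAS1 at 2.21 and 3.03 and FAS2 at 2.47 and 3.23, and OLE1 higher than all of them on both arrays. FAS1 and FAS2, whose products form 1 complex, differed by less than the gap between arrays. ACP1 (-1.16 and -1.31), the acyl carrier gene of mitochondrial fatty acid synthesis, was below. The list of 23 fatty acid and lipid genes counted 5 above (21.7%, background 32.6%) and 9 below (39.1%, background 32.2%) with a median of -0.02. The fifth above was the acetyl-CoA synthetase gene ACS2 (1.65 and 2.12), and KEI1, AVO1 (-2.40 and -1.59) and BPL1 were the lowest. The 9 genes that did not pass included SEC14 (0.74 and 0.25), CDS1 (0.37 and 0.56) and the sphingolipid genes LCB1 (-0.34 and 1.09) and LCB2 (0.16 and 0.05). The measured genes of TOR complex 2, TOR2 (-1.36 and -0.88), AVO1, TSC11 (-0.67 and -0.93) and LST8 (-1.41 and -0.71), were all below. KOG1 of TOR complex 1 (-0.14 and -0.23) did not pass.

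Along the route from fructose phosphate to GDP-mannose, which feeds protein glycosylation, the level was higher at each step, with PMI40 at 0.76 and 0.56 (not passing), SEC53 at 1.93 and 1.63 and PSA1 at 3.66 and 3.44, and the arrays of the 3 genes do not overlap. GFA1, the entry enzyme of UDP-N-acetylglucosamine synthesis, was above (1.30 and 0.99), and GNA1, which acts directly after it, was among the lowest genes of the pool. ALG7 (-1.44 and -1.57), which uses that sugar in the opening step of N-glycan synthesis, and BIG1 (-1.89 and -2.28), needed for cell wall glucan, were also below. STT3 (1.34 and 0.94), the catalytic subunit of oligosaccharyltransferase, was above, and its partners OST1 (0.82 and -0.11, not passing) and SWP1 (-1.32 and -0.38, below) were lower.

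GPI anchor synthesis had 8 of 11 measured genes below the median (72.7%, background 32.2%) and 0 above (background 32.6%). Beside GPI15, GPI1 of the same enzyme had -1.60 and -1.16. The deacetylase gene GPI12 (-1.70 and -2.02), the mannosyltransferase genes SMP3 (-2.10 and -2.13) and GPI18 (-0.51 and -0.98) and the acyltransferase gene GWT1 (-0.60 and -1.01) were all below. Of the transamidase that transfers the finished anchor, GPI17 (-1.06 and -0.86) was below and GPI8 (0.31 and -0.43) did not pass. DPM1 (0.56 and 0.75), which makes the mannose donor used also by other glycosylation, and MCD4 (0.28 and 0.12) were positive on both arrays without passing.

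**Figure D4:**
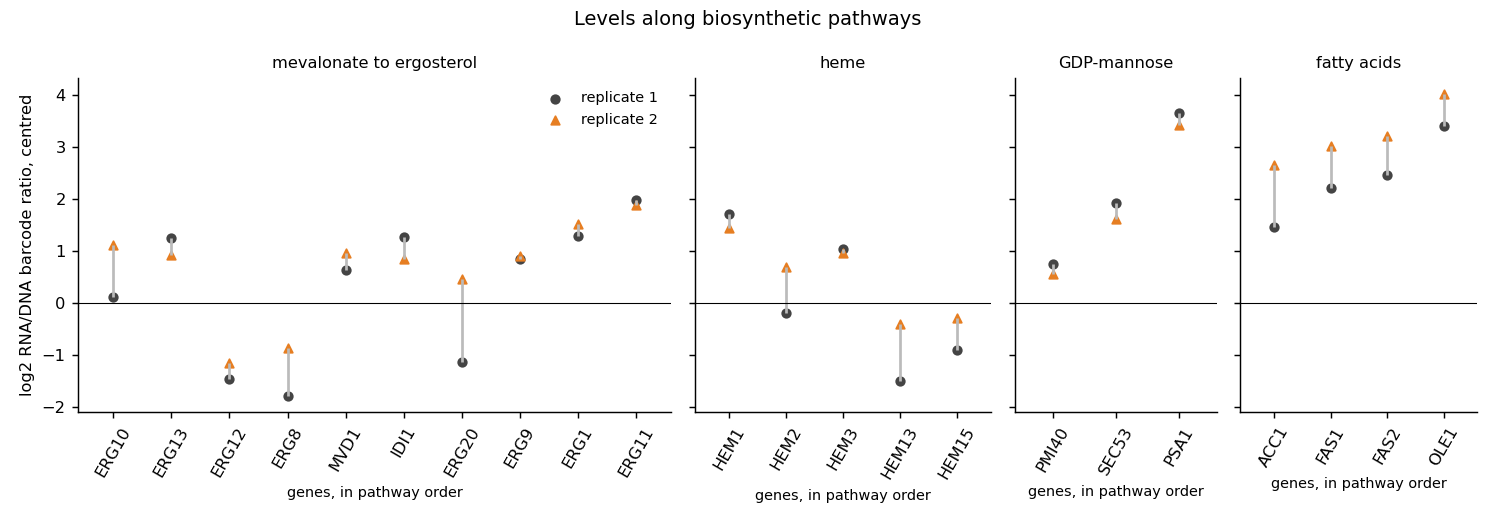
Level on replicate 1 (circles) and replicate 2 (triangles), as log2 RNA/DNA barcode ratio centred on the array median, of measured genes along 4 biosynthetic pathways, each in the order of its steps. The kinases ERG12 and ERG8 lie below 0 between enzymes above it, and PMI40, SEC53 and PSA1 lie higher in that order.

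Genes that copy and segregate chromosomes were mostly low. In the list of polymerases, primase and clamp 9 of 13 were below the median (69.2%, background 32.2%). The 1 gene above (7.69%, background 32.6%) was the ribonucleotide reductase gene RNR2 (1.15 and 0.70). POL1 (-1.83 and -1.22), the catalytic subunit of polymerase alpha, and its partner POL12 (-1.03 and -0.85) were below, higher than the primase gene PRI2 on each array. POL2 of polymerase epsilon (-0.27 and -0.14) and POL30, the clamp PCNA (-0.10 and -0.18), stood near the median and did not pass. Among origin, helicase and checkpoint genes 14 of 19 were below (73.7%, background 32.2%) and 0 above (background 32.6%). The GINS genes PSF1 (-2.16 and -2.15), PSF2 (-1.64 and -1.56) and SLD5 (-1.46 and -0.96) and CDC45 (-1.30 and -1.11), which complete the replicative helicase, were all below, as were the checkpoint kinase genes MEC1 (-1.81 and -1.31) and RAD53 (-1.62 and -1.48). The MCM genes that form the helicase ring were higher. MCM3 (0.88 and 0.27), MCM6 (0.05 and 0.66) and MCM5 (-0.18 and -0.51) did not pass, and MCM2 (-0.88 and -0.78) was below. CDC6 (0.61 and 0.53), the loader of that ring, was positive on both arrays without passing.

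Kinetochore and spindle pole genes had the lowest list median, -1.17 over 28 measured genes. Below the median were 19 (67.9%, background 32.2%) and above it 0 (background 32.6%). In the outer kinetochore DAM1, DUO1 (-2.27 and -2.06) and ASK1 (-1.31 and -0.75) of the microtubule-binding ring, NUF2 (-2.21 and -1.74) and SPC24 (-1.91 and -2.10) of the Ndc80 complex and SPC105 (-2.14 and -1.53) were all below. In the linker complex MIND, MTW1 and NSL1 (-1.01 and -1.25) were below, DSN1 (-0.54 and -0.35) did not pass and NNF1 (0.62 and 0.23) was the highest of the list without passing. The centromeric histone gene CSE4 (-0.66 and -1.51) was below, and CTF13 (-2.15 and -1.78) and CBF2 (-1.39 and -1.04), whose products bind the centromere DNA, were too. All 5 measured spindle pole genes were below, SPC29, SPC42 (-1.36 and -1.49), SFI1 (-1.69 and -1.44), BBP1 (-0.90 and -0.64) and the gamma-tubulin gene TUB4 (-1.15 and -1.51). The cell cycle genes CDC28 (0.11 and -0.11), CKS1 (0.41 and 0.19) and CDC14 (0.11 and 0.14) were near the median.

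Cohesin, condensin, Smc5-Smc6 and anaphase-promoting complex genes counted 13 below (72.2%, background 32.2%) and 0 above (background 32.6%) of 18. Among the ATPase genes of the 3 ring complexes SMC4 (-0.35 and -0.02) and SMC3 (-0.79 and -0.57) did not pass, and SMC2 (-0.89 and -0.66), SMC1 (-1.70 and -0.32) and SMC5 (-2.19 and -0.76) were below. MCD1, the cleavable cohesin subunit, had 0.35 and -0.39 and did not pass. KRE29 and MMS21 (-1.75 and -1.75) of the Smc5-Smc6 complex were below. In the anaphase-promoting complex APC4 (-2.53 and -1.83), APC5 (-2.0 and -1.74) and CDC27 (-1.91 and -1.24) were below, whereas CDC16 (0.27 and 0.89) was positive on both arrays and did not pass.

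Pre-mRNA splicing genes had a median of -1.09 over 25 genes, 16 below (64%, background 32.2%) and 1 above (4%, background 32.6%). The 1 above was SUB2 (2.91 and 3.93), a helicase that acts in splicing and also in mRNA export. CWC24 (-1.64 and -2.70), PRP3 of the U4/U6 particle (-1.76 and -1.98) and PRP11 of the U2 particle (-1.82 and -1.61) were lowest. PRP4 (0.68 and 0.23), CWC2 (0.02 and -0.03), PRP6 (-0.47 and 0.05) and the large helicase gene BRR2 (-0.41 and -0.29) did not pass.

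Export and 3'-end genes were wide in range. In the list of Ran cycle, karyopherin and pore genes, 8 of 20 were above (40%, background 32.6%) and 2 below (10%, background 32.2%). YRA1 (3.02 and 2.96), the partner of SUB2 in export, and NAB2 (1.45 and 1.78), a poly(A)-binding export factor, were above, as was the export receptor subunit gene MTR2 (1.33 and 1.39). The import receptor genes KAP95 (2.45 and 2.15) and SRP1 (1.36 and 1.05), which form a dimer, were above, and the pore genes NUP145 (0.67 and 0.75) and NIC96 (0.50 and 1.30) too. NUP85 (-1.28 and -0.19) and BRL1 (-1.27 and -1.18) were below, and the import receptor gene MTR10 (-0.72 and -0.22) did not pass. In the list of 3'-end formation, exosome, decapping and tRNA processing 11 of 36 were above (30.6%) and 9 below (25%), neither share being over its background. The cleavage factor genes YTH1 (-2.28 and -2.17) and PTI1 (-1.19 and -1.05) and the poly(A) polymerase gene PAP1 (-1.54 and -1.02) were below, as were the tRNA splicing endonuclease gene SEN34 (-1.99 and -1.85) and POP4 (-1.73 and -1.24) of RNase P and MRP. The exosome nuclease gene DIS3 (1.47 and 1.22), CDC39, the scaffold of the deadenylase complex (1.53 and 1.53), and the decapping enzyme gene DCP2 (0.79 and 0.76) were above.

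Among secretory genes, the list of ER translocation, folding and vesicle coats had 6 of 14 above the median (42.9%, background 32.6%). It had 2 below (14.3%, background 32.2%). All 3 measured COPI genes, COP1 (1.04 and 1.12), SEC26 (2.02 and 1.62) and SEC27 (0.52 and 1.45), were above. SEC24 of the COPII coat had 0.71 and 0.97. SEC12 (-1.34 and -0.72), which starts COPII assembly, and PBN1 (-1.52 and -1.19), needed in GPI anchor synthesis, were below, and the alpha subunit gene of the signal recognition particle receptor (-0.13 and -0.30) did not pass. The 5 measured exocyst genes had negative means, EXO70 (-1.56 and -0.99), EXO84 (-1.27 and -0.70) and SEC5 (-0.98 and -0.79) being below and SEC10 (-0.56 and -0.54) and SEC15 (-0.79 and 0.01) not passing. Over the list of SNAREs, Rab proteins and tethers 8 of 22 were below (36.4%, near the background of 32.2%) and 2 above (9.09%, background 32.6%), the myosin gene MYO2 (0.79 and 1.49) and the Rab gene YPT1 (0.92 and 1.09). The Rab escort gene MRS6 (0.64 and 0.70) was next and did not pass. BET4 was the lowest and SEC1 (-1.14 and -0.92), which guides SNAREs at the plasma membrane, was also below.

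Actin genes counted 5 above (55.6%, background 32.6%) and 1 below (11.1%, background 32.2%) of 9. Highest were ARC35 and ARP2 (2.04 and 2.31) of the Arp2/3 complex, then calmodulin (CMD1, 1.47 and 1.77). The endocytic gene SCD5 (-0.99 and -0.87) was lowest. MYO1 (-0.43 and -0.01) and IQG1 (-1.10 and -0.19) of the cytokinetic ring did not pass. Polarity and mitotic exit genes counted 8 below (44.4%, background 32.2%) and 1 above of 18, with HYM1, AVO1 and the phosphatase regulator gene SDS22 (-1.87 and -1.83) lowest and CMD1 highest.

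Of 6 mitochondrial import genes, 2 were below (33.3%, near the background of 32.2%) and 0 above. SAM50 (-1.48 and -1.08) and SAM35 (-1.39 and -1.57), which insert proteins into the outer membrane, were those below, and MIA40 (0.86 and 0.06), MAS2 (0.27 and -0.11), MAS1 (0.22 and -0.72) and PAM16 (-0.05 and -0.85) did not pass. In the list of iron-sulfur, heme and cofactor genes 11 of 23 were below (47.8%, background 32.2%) and 2 above (8.70%, background 32.6%). These 2 were early heme genes, HEM1 (1.71 and 1.45), which makes the precursor aminolevulinate, and HEM3 (1.04 and 0.97). HEM2 (-0.21 and 0.69), the step between them, and HEM15 (-0.91 and -0.30), the final iron insertion, did not pass, and HEM13 (-1.50 and -0.41), an oxygen-dependent step, was below. MMF1 (0.30 and 0.56), a mitochondrial matrix gene, ranked next after HEM3 without passing. FAD1 (-2.69 and -1.74), which makes FAD from riboflavin phosphate, RIB5 (-2.07 and -1.77), the last step to riboflavin, and CAB5 (-1.52 and -1.48), the last step to coenzyme A, were lowest.

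The 34 genes in no list counted 10 above (29.4%) and 11 below (32.4%), both near the background of 32.6% and 32.2%. Among those above were more ribosome assembly genes, CBF5 (1.97 and 2.57), the pseudouridine synthase of box H/ACA particles, RRB1 (1.86 and 1.87) and the rRNA acetyltransferase gene KRE33 (1.24 and 1.51). SHQ1 (-1.71 and -2.74), which assembles box H/ACA particles with CBF5, was below, and NAF1 (0.52 and -0.11), another assembly factor of them, did not pass. RRP17 (-2.26 and -1.91), an rRNA-processing exonuclease gene, was below as well, so ribosome assembly genes lay at both ends. Of the mitochondrial ribosome, MRPS18 (-0.56 and -1.44) and YML6 (-0.73 and -1.26) were below, and RSM10 (-0.41 and -0.93) and NAM9 (0.68 and 0.09) did not pass.

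The median level varied little with gene length in this pool, while the share of genes below the median differed more between length classes. Spearman's rho between mean level and gene length in the R64 annotation was 0.11 across 522 genes (0.04 on replicate 1 and 0.18 on replicate 2), a description in which all genes share the same libraries. Within the 19 lists that had at least 15 genes, the same correlation was above 0 in 14 and below 0 in 5. By length class, the median was -0.27 for genes of 500 to 1000 nucleotides (119 genes, 34 above and 51 below) and 0.0025 for those up to 1500 (124 genes). It was 0.11 up to 2000 (94 genes), -0.04 up to 3000 (98 genes) and 0.01 for longer genes (74 genes, 24 above and 18 below). In these 5 classes in order, 42.9%, 33.1%, 22.3%, 33.7% and 24.3% were below, against 32.2% of all genes. In the same order, 28.6%, 29.8%, 38.3%, 36.7% and 32.4% were above, against 32.6% of all genes. The class up to 500 held 13 genes with a median of -0.03, and it contained both RPB10 (213 nucleotides), the second highest level of all, and YAE1 (426 nucleotides), with -2.20 and -2.20. ACP1 (378 nucleotides, -1.16 and -1.31) and HTB1 (396 nucleotides) were the other shortest genes. The 4 longest were MDN1 of 14733 nucleotides, a ribosome assembly ATPase with 1.11 and 0.96, the Ras regulator gene IRA1 (-0.33 and -0.14), UTP20 (0.93 and 1.32) and TOR2. They took different places as well, MDN1 and UTP20 being above, TOR2 below and IRA1 not passing.

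The difference between the arrays also varied with length. The median of replicate 2 minus replicate 1 was -0.18 for genes over 500 and up to 1000 nucleotides and 0.39 for genes over 3000. The cause was not tested.

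**Figure D5:**
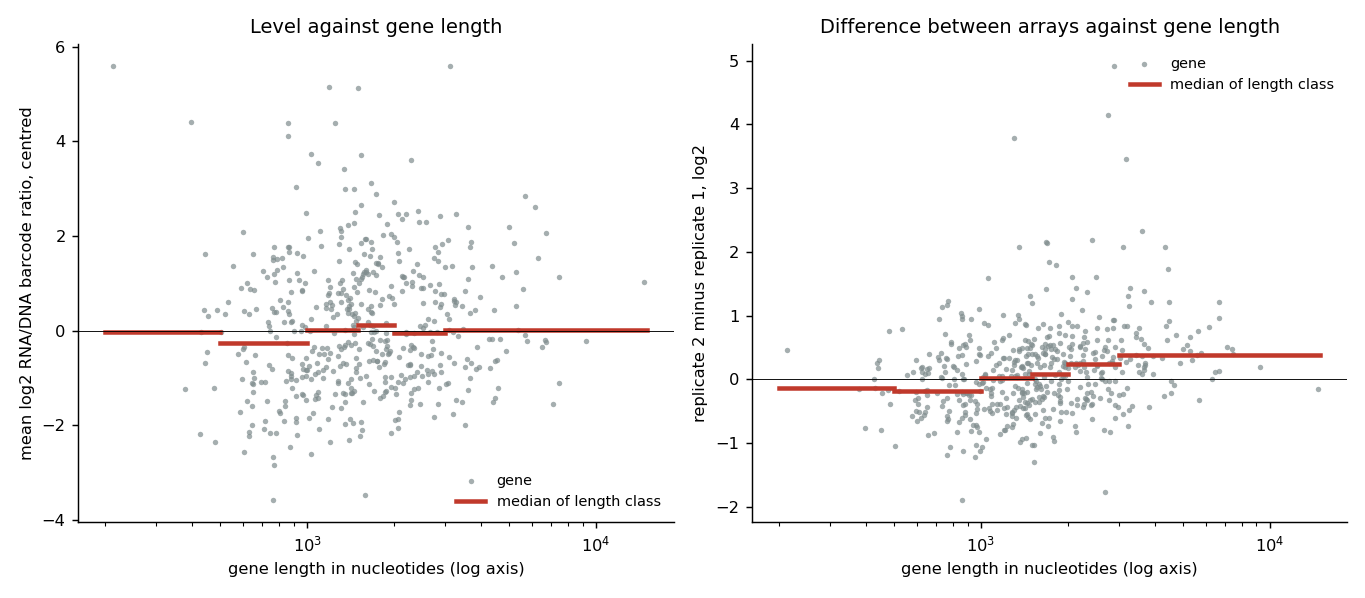
Mean level (left) and replicate 2 minus replicate 1 (right), both in log2 units, against gene length in nucleotides on a log axis, for 522 genes (grey points), with the median of each length class (red bars). Class medians of the level stay between -0.27 and 0.11, while those of the difference between arrays run from -0.18 for genes over 500 and up to 1000 nucleotides to 0.39 for genes over 3000.

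Single genes with unlike arrays limit what can be said of them. The arrays differed by more than 1 for 52 genes, of which 39 were higher on replicate 2, and 326 genes differed by at most 0.5. The widest gaps toward replicate 2 were those of RPG1 (4.92), PMA1 (4.14), RPN6 (3.79), SPT5 (3.45) and RPM2 (2.32, from -2.42 and -0.10), and toward replicate 1 those of RPL17A, SGD1, the kinase gene CDC7 (-0.35 and -1.65), DIM1 (1.46 and 0.24) and GPI15. PMA1 and SGD1 passed the test although their arrays lay on opposite sides of the median. The levels of RPG1, PMA1, RPN6 and SPT5 are therefore not settled by these arrays. In 11 of the 52 genes a second probe was measured. No pair of probes of a gene differed by more than 0.32 on an array in this pool, so in these 11 genes both probes showed the gap. The rest, RPG1, PMA1 and SPT5 among them, had 1 probe, so for them a fault of the probe could not be told apart. For the 11 genes, whether both probes read the same tag was not determined, so a fault of a tag was not tested. The cause of the gaps was not tested.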

How the data were processed

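Barcode arrays of 2 dye channels (RNA-derived Cy3, genomic DNA Cy5, no dye swap) were used as 1 table of values per probe. The authors deposited a log ratio per probe, read here as log2; the base, the numerator, the background correction and the normalization are not given in the sources used here. Per the series text only up tags should be read, and which probes are up tags was not determined here.

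From the deposited log2 ratios of the YEL068C arrays, probes with a gene symbol and a value on both arrays were kept, averaged per gene, turned in sign and centred on the array median over the 522 genes. The series has 15743 probe rows, and 843 probes held a value on any array. Each gene was tested against 0 by limma 3.58.1 in R 4.3.3 (an intercept alone, eBayes, two-sided, Benjamini-Hochberg adjustment over all 522 genes, threshold 0.05). With 2 arrays there is 1 residual degree of freedom per gene, so the error leans on a spread shared by all genes (prior degrees of freedom 25.6, SD 0.43), which is why genes with unlike arrays can pass. The procedure was tested on simulated data. Genes with a simulated level of 1 in size were recovered in 34 of 66 cases, those of 2 in 52 of 64 and those of 3 in 58 of 70. Of 322 genes simulated at 0, 5 were called. The arrays' number limits the precision. Gene lengths are gene spans of the R64 RefSeq annotation, to which all 522 genes matched, 521 by symbol.

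The genes and lists were chosen with earlier results of these data known. Named genes are the 10 highest and 10 lowest, the 3 highest and 3 lowest of each list, the 5 with the widest array difference each way, and the 4 longest and 4 shortest. Other genes are named to complete complexes and pathways or from those in no list, a choice made after seeing the values. Lists share genes, 43 genes being in 2 or more. Codon adaptation and promoter motifs were not analysed here.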

Additional observations from a re-analysis of the deposited data

How the results depend on the processing

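The counts of genes above and below the median were 170 and 168. They were 167 and 137 with no centring, 171 and 167 with the first probe per gene, 155 and 138 after quantile normalization, 185 and 174 over genes whose arrays differ by at most 1, 170 and 170 with a robust prior, and 146 and 140 of 433 genes with a spread estimated over all 6 arrays. In that last fit, without replicate 1 or without replicate 2, they were 104 to 113 above and 98 to 107 below; the lone array is then assumed to vary like the other pools, and fewer genes are tested. Of those 433 genes, 274 passed with 2 arrays and 286 with 6, and 257 passed in both fits in the same direction. The correlation of the arrays was 0.88 with the first probe and 0.95 over genes whose arrays differ by at most 1, which that filter brings about by its construction.

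Of 140 recomputed medians of 28 lists, 7 changed sign. The other 133 moved by at most 0.43, and 31 of them moved by more than the SD between that list's own median on each array, which is 0 for the 60S list. The chaperonin list (-0.05) became 0.88 over genes whose arrays differ by at most 1, 0.51 without replicate 1 and 0.14 without replicate 2. The list of fatty acid and lipid synthesis (-0.02) became 0.066, and that of mitochondrial import (-0.35) 0.11, over genes valued on at least 1 array. Without replicate 2 the lipid list was -0.335, and the chromatin list (-0.04) was -0.285, or -0.195 without replicate 1. Mitochondrial import was 0.085 without replicate 2 and -0.78 without replicate 1, and the list of 3'-end formation (-0.005) was 0.075 without replicate 1 and -0.0575 without replicate 2. The cause was not tested. For the chaperonin, lipid, mitochondrial import and 3'-end lists, whose medians changed sign, no side of the median can be given. The chromatin list stayed below 0 under each alternative, though its main value was close to 0. The number of the 28 lists with a median above 0 was 12, and 12 to 14 under the alternatives. Spearman's rho of level and length (0.11) was 0.04 without replicate 2 and 0.18 without replicate 1.

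No paired analysis was possible because only 1 pool was used and no groups were compared. The alternatives for codon adaptation and promoter motifs were not run, since no coding or promoter sequences were used here. Both arrays come from 1 cross, so the spread between cultures is unknown, and the missing dye swap leaves any dye effect in each level. A gene with a level under about 0.69 in size could not be separated from the median, and a gene past that size can still fail, as RPG1 did.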

Other observations

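A value on only 1 of the YEL068C arrays was found for 84 genes. They enter no result above except the list medians and the correlation over genes valued on at least 1 array. Their values are centred on the array's median over all genes with a value on it, and not over the 522 genes. On replicate 2 alone were 78, with a median of -0.59 on that array's scale and 48 of them below 0. HSP60, the chaperonin of the mitochondrial matrix, had 5.14, the proteasome lid gene RPN8 2.59 and the cohesin gene IRR1 2.05. At the low end, TAM41 of mitochondrial lipid synthesis had -3.78, YPI1, which regulates a protein phosphatase, -3.32, the SNARE gene SED5 -3.12 and the splicing gene SNU56 -3.01. In all, 13 of the 78 were under -2 on this centring. Of the 522 genes on both arrays, 21 were under -2 on replicate 2 when centred over the 522, so the counts are on unlike scales. The 78 genes had a median length of 1218 nucleotides, against 1524 for the genes on both arrays.

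On replicate 1 alone were 6 genes. DED1, a helicase of translation initiation, had 4.97, and the ribosome assembly genes NOB1 and RLP24 had 2.36 and 2.04. TBF1, a gene of a telomere-binding factor, had 0.51, TAP42, which regulates phosphatases, -0.26 and WBP1 of oligosaccharyltransferase -0.82. These genes were chosen after their values were seen, and a single array gives them no error.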
